A study of Mus musculus with 7 samples.

Results

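The cells described here are 360 lung cells, 0.707% of 50955, that were chosen by a gate meant to capture alveolar fibroblasts. A unique molecular identifier (UMI) stands for 1 captured RNA molecule. A gated cell held at least 2 UMIs of the collagen genes Col1a1, Col1a2 and Col3a1 together and at least 3 UMIs of Col13a1, Npnt, Tcf21, Itga8 and Limch1 together. It also held at most 1 UMI of the adventitial fibroblast genes Pi16, Col14a1 and Dpt, no UMI of the leukocyte gene Ptprc, and at most 1 UMI of the endothelial genes Cdh5 and Pecam1. Levels of these genes therefore describe the choice and are not findings. The gate took 294 cells from the library Smad4fl/fl 1, which is 81.7% of the total, 14 and 8 from Smad4fl/fl 2 and 3, and 24, 13, 4 and 3 from Smad4iko 1 to 4. The label holds for only some of these cells, so they are called the gated cells throughout.

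The study asked what the loss of Smad4 does to the mouse lung. The control mice, named Smad4fl/fl, carried floxed Smad4 alleles and no Cre, and the mice named Smad4iko carried the same alleles with creERT2, a tamoxifen-dependent Cre, at the Rosa26 locus. Both were littermates that received 5 intraperitoneal tamoxifen injections of 75 mg/kg between postnatal days 21 and 26, and lung tissue away from the hilum was taken at 8 weeks of age. Rosa26 is active in most cell types, so the deletion was not directed at fibroblasts. There was 1 droplet library per mouse, 3 Smad4fl/fl and 4 Smad4iko, with 46449235 to 66557262 UMIs each.

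Alveolar fibroblasts lie in the wall of the air sacs, beside the epithelium and the capillaries. They deposit the collagen and elastic fibres of the septum, handle retinoids and lipids, and release growth factors such as FGF10 and WNT2 that act on alveolar epithelial cells. TCF21 is a transcription factor of lung mesenchyme, and nephronectin (Npnt) is a matrix ligand of the integrin whose alpha chain is integrin alpha 8 (Itga8). Smooth muscle cells and pericytes, together called mural cells, are other mesenchymal cells of the lung, and they contract through alpha smooth muscle actin (Acta2) and smooth muscle myosin (Myh11). SMAD4 is the shared partner of the SMAD proteins that relay TGF-beta and BMP signals to the nucleus, and TGF-beta is known to drive contractile genes in fibroblasts.

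Summed UMIs of the gated cells were 1449163, 88930 and 51000 for the control libraries 1 to 3, and 247051, 122157, 19828 and 16008 for the Smad4iko libraries 1 to 4. Levels are given as CPM, a gene's UMIs for every 1000000 UMIs in the same cells. A gene with no UMI could still have been present at up to 2.07 CPM in Smad4fl/fl 1 and up to 187 CPM in Smad4iko 4, the level of 3 UMIs. The median gated cell held 3938 to 9068 UMIs, depending on the library. Scrublet marked none of the 360 as a doublet and 1284 of all cells (2.52%). Of 339 barcodes that occurred in more than 1 library, 1 belonged to a gated cell.

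Lymphocytes, used to read free RNA, held more RNA of Inmt, Npnt, Acta2 and Myh11 in Smad4fl/fl 1 than in the other libraries. That of the neutrophil gene S100a9 was lowest there. Inmt, an amine N-methyltransferase gene that marks alveolar fibroblasts, gave 324 CPM in the lymphocytes of Smad4fl/fl 1 (cells with at least 2 UMIs of Cd3d, Cd3e and Cd79a), where 20.7% of 1725 cells held a UMI (exact 95% interval 18.8% to 22.7%). In the lymphocytes of the other 6 libraries it gave 1.70 to 32.7 CPM, with a UMI in 0.799% to 2.38% of cells. Npnt gave 149 CPM in the lymphocytes of Smad4fl/fl 1 and 4.96 to 18.6 CPM elsewhere, and Acta2 gave 31.7 CPM against 0.718 to 14.1 CPM. A single cell held 59.2% of these Acta2 UMIs in Smad4fl/fl 1 and 87.9% in Smad4iko 3. For Myh11 these shares were 50.0% and 95.3%, so the levels of both genes are not free RNA alone. Lymphocytes with an Acta2 UMI were 2.32% in Smad4fl/fl 1 and 0.357% to 1.53% elsewhere. Marked doublets were not removed from the lymphocytes. Median depths of the lymphocytes were 4583 to 7305 UMIs. Such intervals cover counting error only.

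Most cells that met the other criteria failed at the limit on adventitial genes. Of the kept cells, 2884 had at least 2 collagen UMIs, 2120 of these also had at least 3 marker UMIs, 1776 had in addition no Ptprc UMI, and 1251 also met the endothelial limit. The limit of 1 UMI of Pi16, Col14a1 and Dpt then removed 891 of the 1251, or 71.2%. The removed cells were deeper, with a median of 10833 UMIs against 4927 in the gated cells, and 92.0% of them held Dpt, 57.4% Col14a1 and 32.4% Pi16. Of the removed cells, 566 came from Smad4fl/fl 1.

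In Smad4fl/fl 1 the removed cells carried Npnt, Pdgfra and Mfap4 at levels like the average of the gated cells. That average spans cells rich and cells poor in Inmt. The rich ones, clusters 1 to 4 described below, stood above the removed cells for each of these genes. Npnt stood at 2091 CPM in the 566 removed cells and at 2067 CPM in the 294 gated cells, Pdgfra, a growth factor receptor of fibroblasts, at 641 and 583 CPM, and Mfap4, a microfibril protein gene, at 2373 and 2448 CPM. Inmt stood at 6157 CPM in the removed cells, 4999 CPM in the gated cells, 882 CPM in the 97 cells of an adventitial gate and 72.3 CPM in the 60 cells of a mural gate. Dcn, the gene of the collagen-binding proteoglycan decorin, gave 2182 CPM in the removed cells, 8206 CPM in the adventitial gate and 32.4 CPM in the gated cells. The gated cells thus held almost none of the Dcn RNA that the removed cells held. In the opposite direction, Acta2 stood at 3441 CPM in the gated and 473 CPM in the removed cells, Myh11 at 1120 and 133 CPM, and Cox4i2, a mitochondrial gene used as a pericyte marker, at 755 and 24.7 CPM. The gates fix these contrasts, so no test was made. In the other 6 libraries the removed cells carried genes of both kinds. Their Dcn stood at 3728 to 13142 CPM, against 8639 to 15045 CPM in the adventitial gate and 0 to 137 CPM in the gated cells. Their Npnt, which the gate required in part, stood at 1121 and 416 CPM in Smad4fl/fl 2 and 3 and at 560, 786, 106 and 33.5 CPM in Smad4iko 1 to 4, against 0 to 7.28 CPM in the adventitial gate. Inmt stood at 3084 and 3786 CPM and at 3669, 4050, 1182 and 2446 CPM, which is above the adventitial gate of the same library in each but Smad4iko 3, and above the gated cells in each but Smad4fl/fl 3.

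**Figure D1:**
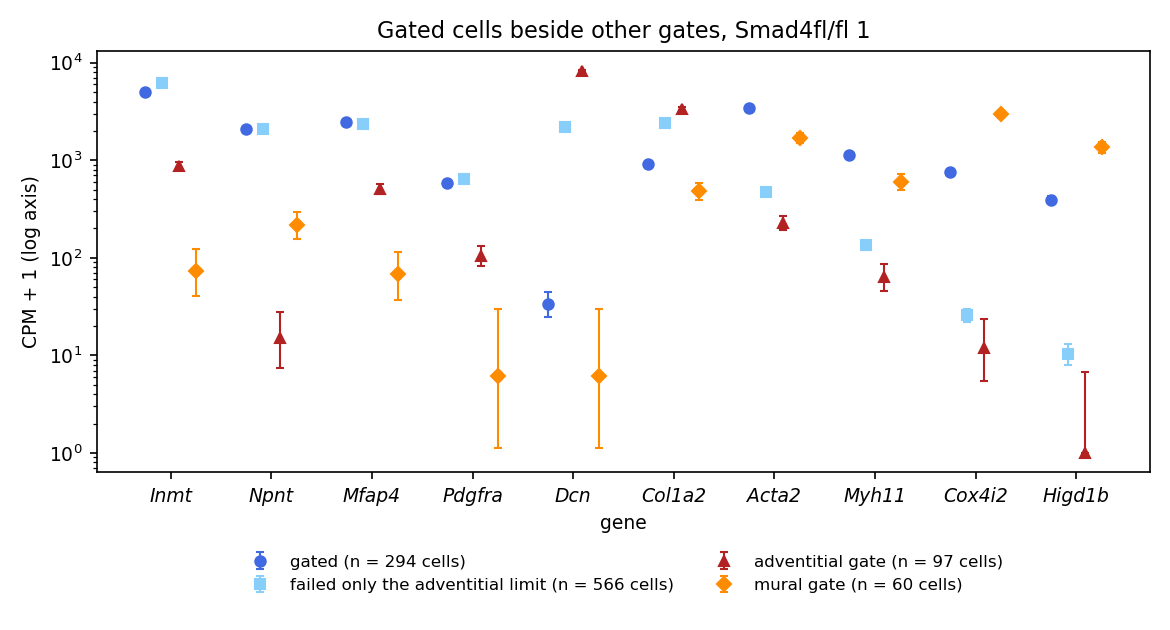
Levels of 10 genes (x axis) in CPM + 1 on a log axis (y axis) in 4 sets of cells of Smad4fl/fl 1; bars are 95% Poisson intervals, which cover counting error only. Inmt, Npnt, Mfap4 and Pdgfra lie close together in the gated cells and in those that failed only the adventitial limit, while Acta2, Myh11, Cox4i2 and Higd1b are higher in the gated cells and Dcn is lower. The gated values average over cells rich and cells poor in Inmt.

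The 5 marker genes of the label were not all present in each library. Inmt, which the gate did not use, stood at 4999, 2271 and 4451 CPM in Smad4fl/fl 1 to 3 and at 1433, 2407, 50.4 and 125 CPM in Smad4iko 1 to 4. Npnt stood at 2067, 1080 and 941 CPM in Smad4fl/fl and at 749, 1285, 555 and 750 CPM in Smad4iko. Tcf21 stood at 699, 281 and 745 CPM and at 320, 598, 504 and 500 CPM. Inmt is high in 5 libraries and near the level of lymphocytes in none of them, whereas the 7 cells of Smad4iko 3 and 4 together held 3 Inmt UMIs. Itga8 stood at 788, 821 and 490 CPM in Smad4fl/fl and at 789, 876, 202 and 125 CPM in Smad4iko. Col13a1, a transmembrane collagen gene, stood at 231, 22.5 and 294 CPM and at 101, 196, 0 and 0 CPM, so both Smad4iko 3 and 4 lacked it. Limch1, an actin regulator, stood at 1068, 439 and 922 CPM and at 546, 909, 757 and 125 CPM.

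Cell by cell, Inmt was present in only part of the gate. Of the 360 cells, 191 held at least 5 Inmt UMIs (53.1%), 11 held 3 or 4, and 122 held none (33.9%). At least 5 UMIs of Acta2, Tagln and Myh11 together, genes of the contractile apparatus, were found in 140 cells, and at least 3 UMIs of the pericyte genes Cox4i2, Higd1b and Notch3 in 116. Of the 191 cells rich in Inmt, 39 also met the contractile count and 2 the pericyte count. At the edge of the gate, the 35 cells with exactly 3 marker UMIs held 1068 CPM of Inmt and 3149 CPM of Cox4i2, and the 28 cells just outside, with 2 marker UMIs, held 966 and 2428 CPM.

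**Figure D2:**
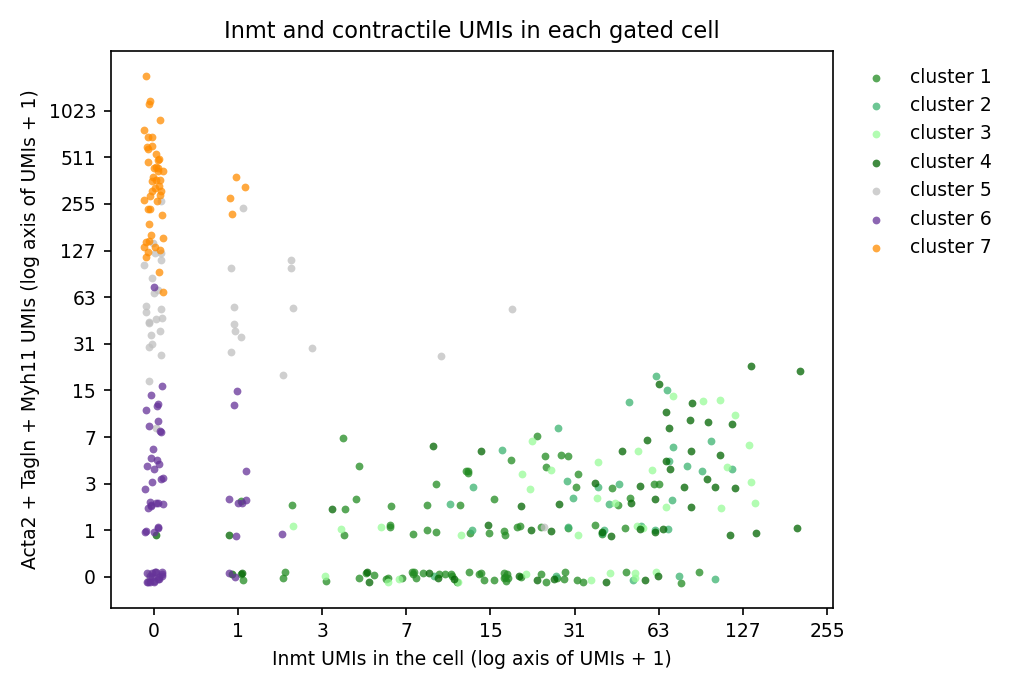
Each of the 360 gated cells by its Inmt UMIs (x axis) and its summed Acta2, Tagln and Myh11 UMIs (y axis), both as UMIs + 1 on log axes with slight jitter, coloured by cluster. The cells form 1 arm along the Inmt axis (clusters 1 to 4) and 1 arm along the contractile axis (clusters 5 and 7), and cluster 6 lies low on both.

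Genes of smooth muscle led the gated cells when they were set against all other cells. The ranking used the mean CPM over the 4 libraries with at least 10 gated cells, Smad4fl/fl 1 and 2 and Smad4iko 1 and 2, with 1 CPM added. Since the gate chose the cells, these ratios are a description and were not tested, and the other cells include the 891 removed ones. Ratios of the 25 leading genes ran from 50.9 to 268, and 11 of the 25 are in the lists of contractile and mural genes, while none is in the list of alveolar fibroblast genes. Actc1, the cardiac alpha actin gene, averaged 2149 CPM against 7.01 CPM in the other cells, a ratio of 268. Cnn1, the gene of calponin, averaged 1068 against 3.08 CPM, Myh11 2511 against 13.0 CPM and Acta2 8458 against 48.1 CPM. Actg2, Tpm2, Myl9, Tagln, Lmod1, Des and Synpo2, which encode actin, tropomyosin, a myosin light chain and proteins that bind actin or form intermediate filaments, followed with ratios of 85.4 to 166. Myocd, the coactivator that switches on smooth muscle genes through serum response factor, averaged 103 against 0.460 CPM. In Smad4fl/fl 1 alone the ratio of Actc1 was lower, 46.5, and 15 of the 25 leading genes were in the contractile and mural lists.

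Contractile UMIs came from a minority of the cells in Smad4fl/fl 1 and from most cells in Smad4iko 1. Acta2 stood at 3441, 9131 and 3922 CPM in Smad4fl/fl 1 to 3 and at 11625, 9635, 5800 and 1187 CPM in Smad4iko 1 to 4. Myh11 stood at 1120, 2710 and 745 CPM and at 4242, 1973, 2421 and 437 CPM. The 4987 Acta2 UMIs of Smad4fl/fl 1 came from 80 of 294 cells, and the 2872 of Smad4iko 1 from 18 of 24 cells.

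Myocardin and serum response factor act through the CArG box, which is 2 C, then 6 bases that are each A or T, then 2 G, and reads as a CArG box on both strands. Promoter windows from 250 bases before to 50 bases after the transcription start were taken from RefSeq (GRCm38.p6) for 18 of the 25 leading genes. Of these 18 genes, 3 held an exact CArG box in the window, against 488 of 27025 genes (1.81%) and 535 of 32851 windows (1.63%). Boxes with a changed base were not counted, and the window of Acta2, which has no exact match, holds such sequences. A window without a match is therefore not shown to lack a working box. In the list of alveolar fibroblast genes, 1 of 19 matched genes held one. The 3 windows are shown because they hold an exact match, with the CArG box in capitals. The windows of the other matched leading genes, Cnn1 and Acta2 among them, held none and are not shown. That of Actc1 (chr2:114052826-114053125, minus strand) holds it at position -47 from the start, that of Myl9 (chr2:156775214-156775513, plus strand) at -161 and that of Myom1 (chr17:71019307-71019606, plus strand) at -99. The window of Inmt (chr6:55174941-55175240, minus strand), the gene that marks the other cells of the gate, is shown beside them and holds none. The same is true of all but 1.81% of genes. A match is a sequence feature and no measure of binding.
Actc1: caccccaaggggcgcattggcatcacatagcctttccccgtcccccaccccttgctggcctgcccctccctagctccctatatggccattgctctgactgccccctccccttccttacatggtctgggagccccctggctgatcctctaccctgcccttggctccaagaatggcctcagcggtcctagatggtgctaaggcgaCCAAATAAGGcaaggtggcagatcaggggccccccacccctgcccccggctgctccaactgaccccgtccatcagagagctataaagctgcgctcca
Myl9: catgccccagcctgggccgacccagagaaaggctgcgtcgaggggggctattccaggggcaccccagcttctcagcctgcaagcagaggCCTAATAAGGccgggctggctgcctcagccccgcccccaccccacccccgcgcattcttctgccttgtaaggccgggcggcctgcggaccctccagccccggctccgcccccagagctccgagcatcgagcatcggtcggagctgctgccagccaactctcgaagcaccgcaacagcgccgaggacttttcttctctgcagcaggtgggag
Myom1: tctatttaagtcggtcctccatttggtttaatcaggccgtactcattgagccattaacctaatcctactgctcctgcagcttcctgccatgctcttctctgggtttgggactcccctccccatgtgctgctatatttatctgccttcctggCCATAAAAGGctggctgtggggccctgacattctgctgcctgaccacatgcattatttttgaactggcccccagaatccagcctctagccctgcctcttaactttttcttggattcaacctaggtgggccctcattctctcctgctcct
Inmt: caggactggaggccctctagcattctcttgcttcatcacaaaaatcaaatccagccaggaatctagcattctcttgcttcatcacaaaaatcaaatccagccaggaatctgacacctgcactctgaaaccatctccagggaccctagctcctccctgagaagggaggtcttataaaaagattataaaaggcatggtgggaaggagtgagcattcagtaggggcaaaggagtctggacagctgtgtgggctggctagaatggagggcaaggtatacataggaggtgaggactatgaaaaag

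Against the adventitial gate, the gated cells lacked the matrix genes of adventitial fibroblasts. Over the 4 libraries above, Dcn averaged 18.3 CPM in the gated and 9580 CPM in the adventitial cells. Lum, the gene of the proteoglycan lumican, averaged 0.518 against 936 CPM, Serpinf1 1.87 against 844 CPM and the hyaluronan synthase gene Has1 4.98 against 805 CPM. The chemokine genes Ccl11 and Ccl7 averaged 3.08 and 1.90 CPM against 666 and 392 CPM. The 12 genes with the highest ratio included Actc1, Higd1b, Cnn1, Spp1, Notch3 and Tinagl1, and 1 gene of the alveolar list, Nebl, at 221 against 1.21 CPM. The gate excluded Pi16, Col14a1 and Dpt, so a contrast of this kind was built in.

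Clustering of the 360 cells gave 7 clusters, numbered from the highest to the lowest Inmt level. Inmt stood at 13211, 8544, 8355 and 8160 CPM in clusters 1 to 4 of Smad4fl/fl 1 and at 202, 40.2 and 12.1 CPM in clusters 5 to 7. The break between clusters 4 and 5 is wider than any other step in this order. Clusters 5 to 7 lay below the Inmt level of lymphocytes in the same library, which was 324 CPM. Clustering at a resolution of 0.5 in place of 1 gave 6 clusters. Cluster genes were chosen on the same cells, so what follows is a description.

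Clusters 1 to 4, which hold 209 cells (58.1%), carried the genes known from alveolar fibroblasts. The 30 genes of the alveolar list outside the gate summed to 28527 to 37442 CPM there and to 2718 to 6405 CPM in clusters 5 to 7 (Smad4fl/fl 1). Mfap4 stood at 3642 to 5857 CPM in clusters 1 to 4 and at 40.2 to 193 CPM in clusters 5 to 7. Pdgfra stood at 761 to 1372 CPM and at 4.02 to 6.52 CPM. Wnt2, which encodes a growth factor, stood at 139 to 259 CPM and had no UMI in clusters 5 to 7, and the same held for Fgf10, at 38.7 to 68.4 CPM. The 16 genes of retinoid metabolism summed to 4059 to 5370 CPM in clusters 1 to 4 and to 1121 to 1356 CPM in clusters 5 to 7. Myh11, Actc1, Cnn1 and Higd1b had no UMI in clusters 1 to 4 of the same library.

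Within this group the clusters differed in depth and in stress genes. Cluster 1 held 87 cells, 81 of them from Smad4fl/fl 1, with a median of 1106 UMIs, 0.195 times the median of their own libraries. Its leading genes were Igkc, Cd79a, Ighm, Cd74 and Scgb1a1, genes of B cells, antigen presentation and club cells, so it was given no name. Cluster 2 (31 cells) was led by Meox2, Vegfd, Robo2 and Slc7a10, and cluster 3 (36 cells) by Ptgfr, Nebl, Pid1 and Scube2. Vegfd, a lymphatic growth factor gene, stood at 722 CPM in cluster 2 and 490 CPM in cluster 3. Cluster 4 (55 cells) was led by Il6, Icam1, Ier3, Nfkbiz, Mt1 and Junb, genes that respond to stress and inflammation. The 29 immediate early and stress genes summed to 55781 CPM in cluster 4 and to 8673 CPM in cluster 2. Fos stood at 6139 CPM in cluster 4, 2040 CPM in cluster 3 and 58.0 CPM in cluster 2.

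Clusters 5 to 7, with 151 cells, carried mural genes to different degrees. Cluster 7 (50 cells) was led by Actc1, Cnn1, Itih4, Actg2 and Mylk4, and its cells from Smad4fl/fl 1 held 16729 CPM of Acta2 and 5395 CPM of Myh11. Itga8 stood at 870 CPM in cluster 7, near the 972 to 1379 CPM of clusters 1 to 4, and Npnt at 290 CPM, against 2843 to 4001 CPM in clusters 1 to 4. Cluster 6 (60 cells) was led by Spp1, Fam162b, Higd1b, Pdzd2 and Cox4i2. It held 4082 CPM of Cox4i2, 2206 CPM of Higd1b and 4054 CPM of the matrix gene Postn, and 824 CPM of Npnt with 16.1 CPM of Limch1. The type IV collagen gene Col4a1, a basement membrane component, stood at 2499 CPM in cluster 6 and at 219 to 278 CPM in clusters 1 to 4. The basement membrane list summed to 10057 CPM in cluster 6 and to 3620 CPM in cluster 7.

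Cluster 5 (41 cells) was mixed. Its leading genes included the chemokine genes Cxcl10 and Ccl2, and it was given no name. In the 28 cells of cluster 5 from Smad4fl/fl 1, Acta2 stood at 4843 CPM, the elastin gene Eln at 1845 CPM and the metalloproteinase inhibitor gene Timp3 at 5776 CPM. Eln stood at 25.7 to 59.5 CPM in clusters 1 to 4 and at 866 CPM in cluster 7. In the lymphocytes of Smad4fl/fl 1, Itga8 gave 43.1 CPM and Tcf21 32.0 CPM, and the part of free marker RNA in taking cells of clusters 5 to 7 into the gate was not tested.

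**Figure D3:**
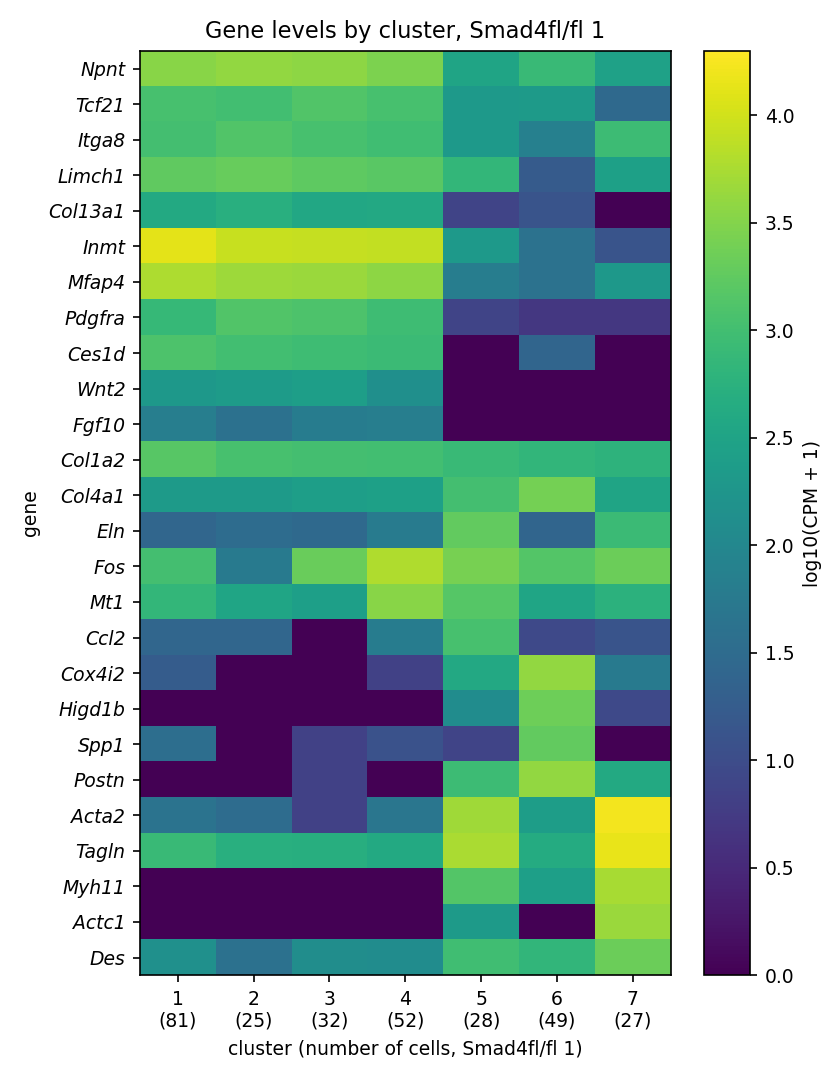
Levels of 26 genes (rows) in the 7 clusters (columns, with the number of cells) of the gated cells of Smad4fl/fl 1, as log10(CPM + 1). Genes from Inmt to Fgf10 are high in clusters 1 to 4, Cox4i2, Higd1b and Spp1 in cluster 6, and Acta2, Tagln, Myh11 and Actc1 in cluster 7, with Acta2 also at 4843 CPM in cluster 5.

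The makeup of the gated cells differed between libraries. Clusters 1 to 4 held 190 of 294 cells (64.6%) in Smad4fl/fl 1, 4 of 14 in Smad4fl/fl 2 and 4 of 8 in Smad4fl/fl 3. They held 6 of 24 cells in Smad4iko 1, 5 of 13 in Smad4iko 2 and none of the 4 and 3 cells of Smad4iko 3 and 4. Outside Smad4fl/fl 1 they thus made up 19 of 66 cells (28.8%). Cluster 7 held 27 cells of Smad4fl/fl 1, 5 of Smad4fl/fl 2, 1 of Smad4fl/fl 3, 13 of Smad4iko 1 and 4 of Smad4iko 2. Cluster 6 held 49, 3 and 1 cells in Smad4fl/fl and 0, 3, 2 and 2 cells in Smad4iko. A level summed over the gated cells of a library therefore moves with the mix of clusters in it.

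**Figure D4:**
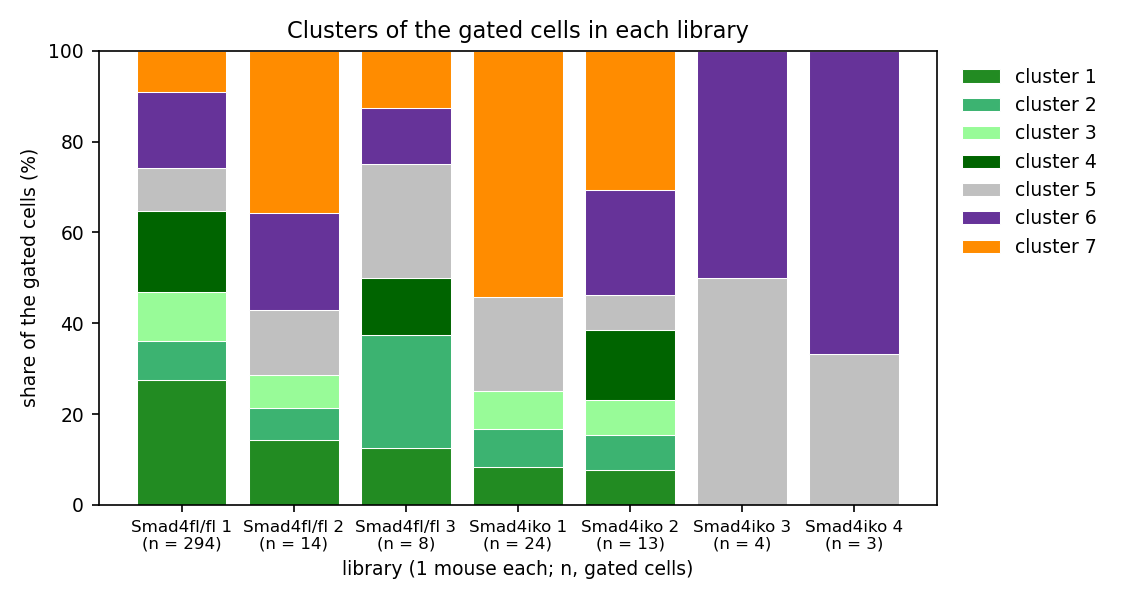
Share of the gated cells (y axis, %) in each of 7 clusters, by library (x axis, with the number of gated cells). Clusters 1 to 4, in green, make up 64.6% of Smad4fl/fl 1 and are absent from the 4 and 3 cells of Smad4iko 3 and 4, and cluster 7 holds 13 of the 24 cells of Smad4iko 1.

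The first comparison between genotypes was the share of gated cells among all kept cells. It was 3.64% (Wilson 95% interval 3.26% to 4.07%), 0.195% and 0.111% in Smad4fl/fl 1 to 3, and 0.368%, 0.193%, 0.0475% and 0.0441% in Smad4iko 1 to 4. Smad4fl/fl 1 alone stands above the others, and the other 2 control libraries lie within the range of Smad4iko. The means were 1.32% ± 2.02 (SD, n = 3) and 0.163% ± 0.153 (SD, n = 4), which did not differ beyond the spread (two-sided exact permutation test, p = 0.400; the smallest p that 35 splits allow is 0.0571). Without Smad4fl/fl 1 the direction turned, to 0.153% in Smad4fl/fl and 0.163% in Smad4iko (difference 0.0101 percentage points, exact permutation p = 0.933). As a share of the cells in the alveolar, adventitial and mural gates together, the gated cells were 65.2%, 35.9% and 17.0% in Smad4fl/fl and 27.3%, 18.1%, 16.7% and 10.0% in Smad4iko. Means were 39.4% ± 24.3 (SD, n = 3) and 18.0% ± 7.11 (SD, n = 4), with overlapping groups (exact permutation p = 0.171). Without Smad4fl/fl 1 this difference shrank from -21.4 to -8.46 percentage points (exact permutation p = 0.400).

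Gene levels were compared between genotypes in the 4 libraries with at least 10 gated cells, Smad4fl/fl 1 and 2 against Smad4iko 1 and 2. UMIs were summed per library, since cells of 1 mouse are not replicates. Smad4 (chr18:73639009-73703780, minus strand, mm10), the targeted gene, stood at 76.6, 67.5 and 98.0 CPM in Smad4fl/fl 1 to 3 and at 81.0, 32.7, 50.4 and 187 CPM in Smad4iko 1 to 4. The groups overlap. The highest value, in Smad4iko 4, rests on 3 UMIs, and that of Smad4fl/fl 2 on 6. The log2 difference of Smad4iko from Smad4fl/fl was -0.22 ± 0.47 (SE), with an adjusted p of 0.992 by edgeR's quasi-likelihood test, and it was 0.20 without Smad4iko 2. Counts at the 3' end do not show whether the transcript carries the deleted part, so these levels do not check the deletion.

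None of the 3396 genes tested was called at an adjusted p of 0.05 by edgeR's quasi-likelihood test (0%), and 206 had an unadjusted p under 0.05 (6.07%), 90 of them higher in Smad4iko (2.65%) and 116 lower (3.42%). DESeq2 called 3 genes, Spp1, S100a9 and Ifit1. The count depended on single libraries. It was 48 without Smad4fl/fl 1, 214 without Smad4fl/fl 2, 11 without Smad4iko 1 and 62 without Smad4iko 2, where the group left with 1 library was assumed to vary like the other. In simulated data with the sizes of these libraries, the test recovered 10.4% of genes changed by 2-fold, 78.0% of those changed by 4-fold and all 50 changed by 8-fold. Most 2-fold differences were thus not detectable at this depth. The simulation gave genes of like abundance the same spread, with no mix of clusters and no single cells of high count. It therefore does not show that larger differences would be called in the real data. Spp1, at a log2 difference of -5.29, was not called.

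Among the 10 genes with the smallest p, none of which passed the threshold, several belong to single clusters. Spp1 (chr5:104435118-104441050, plus strand), the gene of the secreted matrix protein osteopontin, stood at 322, 371 and 39.2 CPM in Smad4fl/fl 1 to 3 and at 4.05, 16.4, 353 and 0 CPM in Smad4iko 1 to 4. Its log2 difference was -5.29 ± 0.54 (SE, edgeR adjusted p = 0.0716; 3.1e-13 without Smad4fl/fl 1, 6.4e-14 without Smad4fl/fl 2, 5.8e-05 without Smad4iko 1, 4.6e-08 without Smad4iko 2). Over all alternatives run, its adjusted p ranged from 3.6e-15 to 0.9997. Of 467 Spp1 UMIs in Smad4fl/fl 1, 457 were in cluster 6, and of 33 in Smad4fl/fl 2, 32 were in 1 cell. Smad4iko 1 had no cell in cluster 6, while in Smad4iko 3 a single cell of cluster 6 held 7 UMIs. Cox4i2 stood at 755, 933 and 1235 CPM in Smad4fl/fl and at 166, 254, 1715 and 1812 CPM in Smad4iko, and 1016 of its 1094 UMIs in Smad4fl/fl 1 were in cluster 6. The Smad4iko libraries left out of the fit, with 4 and 3 cells, are above all 3 controls for Cox4i2.

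Other genes of this set followed the clusters in the same way. Lipg, the endothelial lipase gene, and Cdkn1c, a cell cycle inhibitor gene, had log2 differences of -2.04 ± 0.41 and -1.84 ± 0.36 (SE), and 398 of 497 and 443 of 524 of their UMIs in Smad4fl/fl 1 were in cluster 6. In Smad4iko 3 and 4, which were left out of the fit, Lipg stood at 1110 and 875 CPM and Cdkn1c at 403 and 875 CPM, above every control. Timp4, a metalloproteinase inhibitor gene, S100a4, a calcium-binding protein gene, and Kif1c, a kinesin gene, had log2 differences of 2.02 ± 0.38, 2.28 ± 0.44 and 1.84 ± 0.37. In Smad4iko 1, cluster 7 held 45 of 46 Timp4 UMIs, 79 of 84 S100a4 UMIs and 32 of 35 Kif1c UMIs. In Smad4iko 3 and 4, Timp4 had no UMI, S100a4 stood at 0 and 312 CPM and Kif1c at 50.4 and 62.5 CPM. The adjusted p of these 5 genes and of Cox4i2, Mfap4, S100a9 and Ifit1 was 0.431 each (edgeR). The share of the mix of clusters in these differences was not tested.

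Mfap4, by contrast, came mostly from clusters 1 to 4, with 3479 of 3547 UMIs in Smad4fl/fl 1 and 127 of 178 in Smad4iko 1. It stood at 2448, 2598 and 843 CPM in Smad4fl/fl 1 to 3 and at 720, 884, 0 and 0 CPM in Smad4iko 1 to 4, a log2 difference of -1.63 ± 0.30 (SE) in the fit. Within clusters 1 to 4 alone it stood at 4357, 10626 and 1758 CPM in Smad4fl/fl and at 3121 and 2782 CPM in Smad4iko 1 and 2, with 190, 4 and 4 against 6 and 5 cells. These values overlap, since Smad4fl/fl 3 lies below both Smad4iko libraries. In Smad4fl/fl 2, 104 of 231 Mfap4 UMIs came from 1 cell. Inmt in clusters 1 to 4 was more even, at 9017, 9238 and 9376 CPM in Smad4fl/fl and 8576 and 7400 CPM in Smad4iko. Pdgfra was likewise close, at 1054, 1005 and 628 CPM and at 1057 and 1188 CPM. The clusters were defined on these cells, so no test was made within them.

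S100a9 and Ifit1 rested on few UMIs or few cells. S100a9, a neutrophil gene, stood at 10.4, 0 and 58.8 CPM in Smad4fl/fl and at 81.0, 303, 50.4 and 0 CPM in Smad4iko (log2 difference 4.23 ± 0.79, SE). In lymphocytes, which should lack it, the same gene gave 86.2, 186 and 402 CPM in Smad4fl/fl and 1054, 2853, 1493 and 746 CPM in Smad4iko. Its level in the gated cells was thus below that in the lymphocytes of the same library in every library. Ifit1, an interferon-stimulated gene, stood at 8.28, 11.2 and 0 CPM and at 376, 57.3, 0 and 0 CPM (log2 difference 4.78 ± 0.92, SE), and in Smad4iko 1 a single cell held 92 of its 93 UMIs. Of the 8 interferon-stimulated genes tested, 5 had an unadjusted p under 0.05 (edgeR), all higher in Smad4iko, with a median log2 difference of 1.85 over the 8. Over all genes tested, 2.65% were higher in Smad4iko at that p. Cxcl10 in Smad4iko 1 was, like Ifit1, mostly 1 cell, with 247 of 270 UMIs. Apart from Ifit1 and Cxcl10, interferon-stimulated genes were not traced to single cells, so these values are not read as a result about the list.

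**Figure D5:**
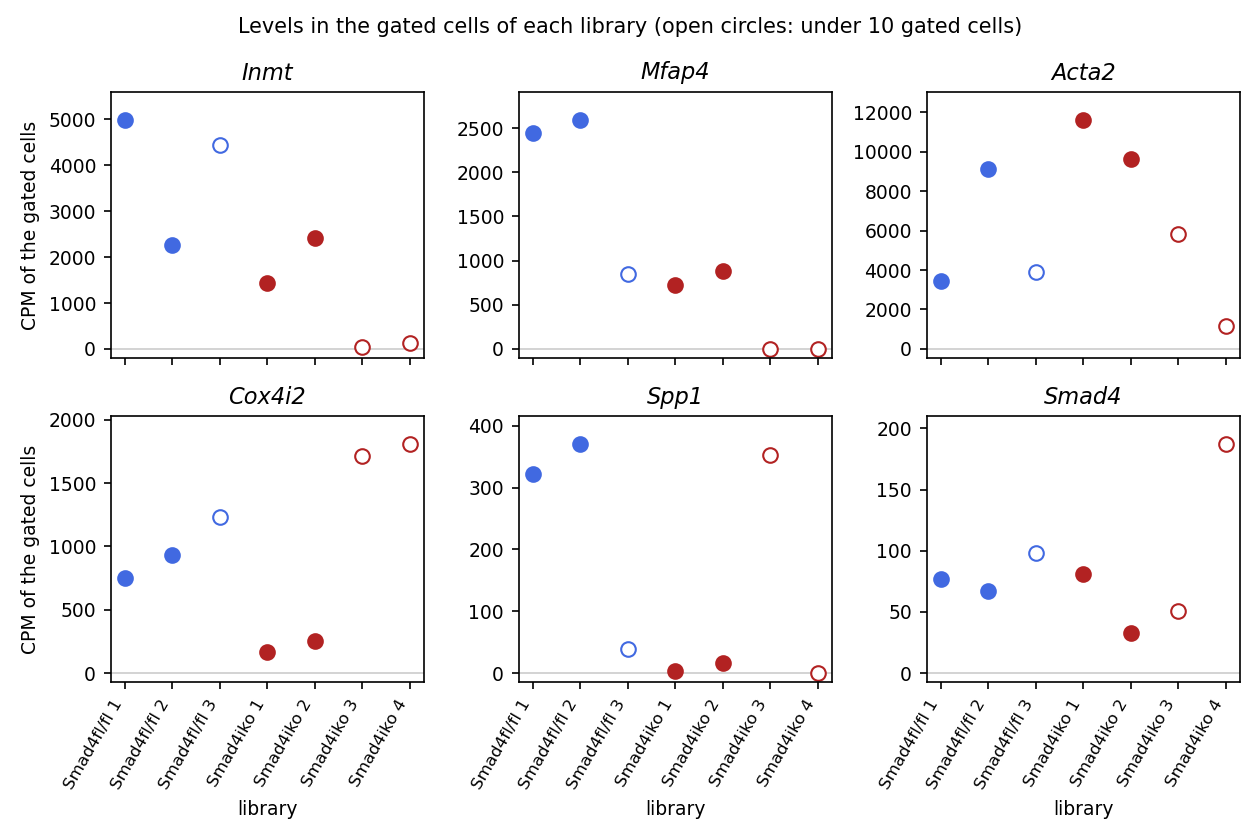
CPM of 6 genes (y axis, linear) in the gated cells of each library (x axis), Smad4fl/fl in blue and Smad4iko in red; open circles are libraries with under 10 gated cells, which were not in the fit. Mfap4, Cox4i2 and Spp1 separate the 2 blue from the 2 red filled circles, while the open circles of Cox4i2 and Spp1 reach or pass the control level in Smad4iko 3, and Smad4 overlaps.

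The lists of alveolar and of contractile genes lay mostly on opposite sides of 0, and no member of any list was called. Over all 3396 genes the median log2 difference was -0.01, with 2.65% higher and 3.42% lower at an unadjusted p under 0.05 (edgeR). In the alveolar fibroblast list, 25 of 30 genes were tested, 23 lay below 0 and 2 above, and 6 had an unadjusted p under 0.05, all lower in Smad4iko, with a median of -0.66. These 6 were Slc7a10, Adh1, Enpep, Cdh11, Vcam1 and Slc38a5, at log2 differences of -0.94 to -1.69. Inmt itself was at -0.91 ± 0.45 (SE). In the contractile list all 18 genes were tested, 16 lay above 0, and Tpm2 (1.22 ± 0.39) and Lmod1 (1.26 ± 0.38) had an unadjusted p under 0.05, with a median of 0.71. Summed, the contractile list stood at 17570, 42157 and 19314 CPM in Smad4fl/fl and at 51819, 43682, 33236 and 12431 CPM in Smad4iko, while clusters 1 to 4 made up 64.6%, 28.6% and 50.0% and then 25.0%, 38.5%, 0% and 0% of the cells. In the pericyte list 9 of 10 were tested, Cox4i2, Higd1b, Pdgfrb and Trpc6 were lower at an unadjusted p under 0.05 and Notch3 was higher (0.82 ± 0.30), with a median of -0.67. Higd1b stood at 393, 427 and 275 CPM in Smad4fl/fl 1 to 3 and at 48.6, 229, 1765 and 1937 CPM in Smad4iko 1 to 4. Smad4iko 3 and 4, which were left out of the fit, thus lay above every control for Higd1b, as they did for Cox4i2.

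Genes of the SMAD4 pathway lay on both sides of 0. Over all genes tested, 2.65% were higher and 3.42% lower at an unadjusted p under 0.05 (edgeR). Single genes at that p were therefore not read as results about their list. Among the SMADs and receptors 12 of 21 were tested, with a median log2 difference of -0.19, and Acvr2a, an activin receptor gene, was the 1 gene with an unadjusted p under 0.05 (-1.19 ± 0.50). Smad7, an inhibitor that TGF-beta and BMP signals induce, stood at 161, 202 and 118 CPM in Smad4fl/fl and at 109, 90.0, 0 and 125 CPM in Smad4iko (-0.76 ± 0.34). Of the TGF-beta output genes 22 of 32 were tested, and 3 were lower at an unadjusted p under 0.05: the fibronectin gene Fn1 (-1.06 ± 0.33), the collagen cross-linking enzyme gene Lox (-1.31 ± 0.35) and Ltbp2 (-1.32 ± 0.49), which encodes a microfibril protein. The median of the 22 was -0.20. Ltbp2 stood at 357, 337 and 275 CPM in Smad4fl/fl 1 to 3 and at 72.9, 221, 656 and 1062 CPM in Smad4iko 1 to 4. In Smad4iko 3 and 4, which were left out of the fit, it thus lay above every control. Of the BMP target genes 7 of 17 were tested, 6 of them above 0, with a median of 0.69, and Bambi, a decoy receptor gene, was higher at an unadjusted p under 0.05 (1.08 ± 0.32). Among ligands and their activators 19 of 31 were tested, Tgfb3 (1.64 ± 0.45) and Inhba (1.42 ± 0.51) were higher and Ltbp2, Bmp4 and Bmp5 lower at an unadjusted p under 0.05.

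Genes of the elastic fibre and collagen lists with an unadjusted p under 0.05 were all lower in Smad4iko. The shares over all genes tested were 2.65% higher and 3.42% lower (edgeR), and 1 or 2 such genes in a list are not a result about it. Of the elastic fibre genes 16 of 19 were tested, 8 above and 8 below 0, and 5 were lower at an unadjusted p under 0.05 (Mfap4, Efemp1, Mfap5, Lox and Ltbp2). Ltbp2 was nonetheless above every control in Smad4iko 3 and 4, which were left out of the fit. Eln stood at 371, 360 and 98.0 CPM in Smad4fl/fl and at 506, 401, 151 and 250 CPM in Smad4iko, with overlapping groups. Of 18 fibrillar collagen and modifier genes tested, Pcolce (-1.26 ± 0.31) and P4ha1 (-1.33 ± 0.48), which process procollagen, were lower, with a median of -0.36. Among the gate's own collagens, Col1a1 stood at 483, 394 and 373 CPM and at 401, 401, 605 and 562 CPM (-0.12 ± 0.30). Of 12 growth factor and receptor genes of the alveolar niche tested, Bmp4, Bmp5 and Pdgfrb were lower and Cxcl12 higher (1.31 ± 0.49) at an unadjusted p under 0.05. The 29 stress genes, all tested, had a median of 0.07, and Klf2 (1.06 ± 0.44) was the 1 gene with an unadjusted p under 0.05.

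Markers of other lung cells were low. Msln and Upk3b, genes of the mesothelium that covers the lung, had no UMI in any library. The endothelial list summed to 98.2 to 333 CPM and the lymphocyte list to 0 to 202 CPM over the 7 libraries. The neutrophil list summed to 236 to 843 CPM, with G0s2, a lipase inhibitor gene that is in this list, at 589 and 225 CPM in Smad4fl/fl 1 and 2. The list of erythroid and platelet genes summed to 0 to 40.5 CPM in the 5 other libraries and to 1009 and 562 CPM in Smad4iko 3 and 4.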

How the data were processed

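Single-cell 3' RNA libraries (10x Genomics) were made from the lungs of 7 mice, 3 Smad4fl/fl and 4 Smad4iko, each giving 1 library. The authors deposited raw UMI counts, not normalized, for each gene in each barcode, in matrices written by Cell Ranger 6.1.1, per the file headers. The submitters' processing notes name fastp, UMI-tools and mm10 without giving the role of each. Of 31253 gene IDs, 31184 matched GENCODE M21, from which gene coordinates were taken.

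Barcodes with at least 600 UMIs, at least 300 genes and at most 20% mitochondrial UMIs were kept, 50955 of 55671. Gated cells were clustered with scanpy 1.11.5 and the Leiden method of igraph 0.11.9 (2000 variable genes, 20 principal components, 15 neighbours, resolution 1). Doublets were marked by Scrublet in each library (expected rate 6%). Shares were compared by exact permutation over libraries. UMIs of the gated cells were summed per library and compared in edgeR 4.0.16 by its quasi-likelihood test (TMM factors, low counts removed by filterByExpr, a model of genotype alone, Benjamini-Hochberg adjustment over all genes tested, threshold 0.05). Libraries with under 10 gated cells were left out, which dropped Smad4fl/fl 3, Smad4iko 3 and Smad4iko 4. DESeq2 1.42.0 was the other tool. The edgeR script was tested on simulated data. Libraries of a group differed by a chi-square of 84.8 to 665 per gene, and no library was found to be a duplicate.

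The gate, the gene lists and the comparisons were chosen with earlier results of these data known. Named genes were, by rule, the gate genes and label markers, Smad4, the 10 genes with the smallest p where none was called, the 25 leading genes against other cells, the 12 highest and lowest against the adventitial gate, and list members that were most abundant or had an unadjusted p under 0.05. Removed cells, clusters, free RNA in lymphocytes and genes traced to single cells were described after their values were seen. The adventitial gate required at least 3 UMIs of Pi16, Col14a1 and Dpt with at most 1 alveolar marker UMI, and the mural gate at least 3 UMIs of Myh11, Cspg4, Notch3, Cox4i2, Higd1b and Actg2 in cells outside the alveolar gate. Some genes are not reported here.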

Additional observations from a re-analysis of the deposited data

How the results depend on the processing

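The count of called genes, 0, stayed 0 with RLE size factors, with 2 or 5 in place of 3 marker UMIs, without marked doublets, with capped cells per library, with libraries of 5 or of 1 gated cell or more, with every library and a covariate for Smad4iko 3 and 4, and without the adventitial limit (8494 genes tested in 7 libraries). It was 11 to 214 with 1 library left out, 54 without a filter on low counts and 3 with DESeq2; the cause was not tested. A minimum of 20 gated cells left 1 library per genotype and was not run, and Smad4iko 1 and 2 alone against the controls is the fit reported. The Smad4 difference ran from -0.23 to 0.20 with 1 library left out and had no value where the filter removed the gene. The log2 difference of Lipg was 0.33 with every library entered, against -2.04. With 1 library left out, the difference in the share of kept cells ran from -1.76 to 0.0101 percentage points and that in the share of gated mesenchymal cells from -32.5 to -8.46. Without the adventitial limit, an alternative chosen after seeing the data, as were the covariate fit, the 5-cell minimum and the crossed pairing, the shares of kept cells were 4.15% and 0.979% (exact permutation p = 0.457).

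Equal replicate numbers were not taken to pair the samples. The correlation of deviations was -0.163 for same-numbered and 0.163 for crossed libraries. With 2 libraries per group the deviations mirror each other, so this value cannot show whether the numbers pair the samples. With a replicate block, 0 genes were called, Smad4 was at -0.19 and the paired differences in shares were -1.11 and -18.7 percentage points (sign-flip permutation p = 0.250 each, the smallest possible). With crossed pairing 6 genes were called.

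Depth limits these results most outside Smad4fl/fl 1, where 66 gated cells in 6 libraries left a single cell able to set a gene's level.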
